A study of Mus musculus with 16 samples.

Results

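The genes described here are 35 genes of glycolysis, glucose transport and the response to low oxygen, followed in skin wounds of diabetic and nondiabetic mice. They were chosen by name: 3 glucose transporters, 8 enzymes of the hexose phosphate steps, 9 of the triose steps, 6 genes of lactate and pyruvate fate, 4 of oxygen sensing, and 5 hypoxia and stress targets. All 35 had a probe, out of 20832 named genes on the array, and all 35 were well above background on all 16 arrays. Each gene was read through 1 probe, the one whose mean over the arrays was highest. The WT group held untreated young adult female C57BL/6J mice, and the 3 other groups held young adult female C57BLKS/J Iar-+Lepr db/+Lepr db mice, which lack a working leptin receptor and become obese and diabetic. The db/db group was untreated, the db/db + estrogen group had estradiol benzoate in sesame oil put on the wound every day, and the db/db + vehicle group received sesame oil alone. Every mouse had full-thickness punch wounds of the back under a dressing, and RNA came from a homogenate of the wound with the intact skin around it. There were 2 arrays per group on each of 2 labelled days, 7 and 14, and it is not stated whether an array holds 1 mouse or several. The background strain differed between the WT group and the db/db groups, so strain and the Lepr mutation cannot be told apart.

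The day labels need care. Fold changes printed by the study for db/db wounds were matched by accession to the arrays: 35 fold changes had a probe, 0 of them lay within 1% of the value from arrays of the same labelled day, and 35 lay within 1% of the value from arrays of the other labelled day. Groups are therefore called by their deposited labels, day 7 and day 14, and the true day of each set cannot be told apart here. The arrays of each label were also scanned on a day of their own. Beside this, the arrays were alike in quality: 70.1% to 79.0% of probes were well above background, and no spot was saturated. On the arrays labelled day 7, replicate 1 of every group lay on 1 slide and replicate 2 on another. On those labelled day 14, 1 slide held both db/db arrays and the other both WT arrays, with 1 db/db + estrogen and 1 db/db + vehicle array on each.

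Glycolysis turns glucose into pyruvate in the cytosol and yields ATP without oxygen. Its enzymes come in isoforms that differ between tissues, so that Pfkm, Pgam2 and Eno3 mark skeletal muscle, a layer of which lies beneath mouse back skin. When oxygen is low, prolyl hydroxylases such as those encoded by Egln1 and Egln3 no longer mark HIF-1α (Hif1a) and HIF-2α (Epas1) for breakdown, and these factors raise transcription of glucose transporters, glycolytic enzymes, the lactate exporter Slc16a3, carbonic anhydrase 9 (Car9) and many others. Egln3 is itself a target of HIF. Healing wounds are a tissue in which oxygen is short, and neutrophils and macrophages in them rely on glycolysis. HIF proteins are regulated mainly by their stability, so an array, which measures RNA, does not measure their activity.

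HIF binds a core of ACGTG or GCGTG. Promoter windows of 300 bases, from 250 before to 50 after a gene start, were taken from RefSeq (GRCm38.p6) to show what the members have in common in sequence beside their function. At least 1 window was given for 31 of the 35 genes and none for Slc2a3, Slc2a4, Epas1 and Ndrg1. ACGTG on either strand stood in a window of 19 of these 31 genes (61.3%), against 5886 of the 27025 genes with a window in the table (21.8%). With GCGTG counted too, the numbers were 28 of 31 (90.3%) and 12628 of 27025 (46.7%). Such a match is a description of letters, not a binding site. Windows of 5 genes are shown: Egln3, Aldoc and Slc16a3, which had the largest differences of the 35 genes between estrogen and vehicle labelled day 7, Hif1a, which encodes a HIF subunit, and Pgam2, a muscle isoform in whose window neither core was found. Capitals mark ACGTG or, for the other strand, CACGT. The windows are chr12:54203825-54204124 on the minus strand for Egln3, chr11:78322823-78323122 on the plus strand for Aldoc (the first of 2 starts), chr11:120948817-120949116 on the plus strand for Slc16a3, chr12:73907617-73907916 on the plus strand for Hif1a, and chr11:5803747-5804046 on the minus strand for Pgam2.
Egln3: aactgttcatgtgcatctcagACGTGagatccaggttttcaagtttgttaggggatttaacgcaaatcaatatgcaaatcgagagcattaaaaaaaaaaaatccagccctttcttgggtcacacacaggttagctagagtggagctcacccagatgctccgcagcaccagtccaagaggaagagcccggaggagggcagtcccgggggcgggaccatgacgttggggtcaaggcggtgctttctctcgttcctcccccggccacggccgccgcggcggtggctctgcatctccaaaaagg
Aldoc: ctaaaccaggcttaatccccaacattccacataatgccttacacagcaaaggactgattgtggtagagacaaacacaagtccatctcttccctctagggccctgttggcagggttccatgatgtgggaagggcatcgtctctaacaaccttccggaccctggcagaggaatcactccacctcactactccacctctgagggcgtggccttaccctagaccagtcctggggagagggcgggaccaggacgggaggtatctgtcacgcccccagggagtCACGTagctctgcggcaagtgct
Slc16a3: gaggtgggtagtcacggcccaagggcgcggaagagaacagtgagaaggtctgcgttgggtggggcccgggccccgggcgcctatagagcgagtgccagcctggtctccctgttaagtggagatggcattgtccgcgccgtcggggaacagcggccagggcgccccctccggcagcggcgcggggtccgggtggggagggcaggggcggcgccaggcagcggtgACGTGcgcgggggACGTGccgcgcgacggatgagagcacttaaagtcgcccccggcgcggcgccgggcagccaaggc
Hif1a: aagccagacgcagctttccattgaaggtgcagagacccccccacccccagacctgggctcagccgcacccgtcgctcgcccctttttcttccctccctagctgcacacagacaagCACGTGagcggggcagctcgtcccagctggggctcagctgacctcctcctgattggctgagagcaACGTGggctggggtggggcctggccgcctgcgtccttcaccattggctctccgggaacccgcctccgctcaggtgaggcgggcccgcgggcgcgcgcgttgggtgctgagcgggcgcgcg
Pgam2: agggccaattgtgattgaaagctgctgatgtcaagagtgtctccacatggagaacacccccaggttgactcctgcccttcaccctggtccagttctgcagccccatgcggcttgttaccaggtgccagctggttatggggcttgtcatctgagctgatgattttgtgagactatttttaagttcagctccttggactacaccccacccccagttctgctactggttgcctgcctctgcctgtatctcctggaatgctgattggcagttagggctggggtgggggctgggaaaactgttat
The match began at −229 from the gene start in Egln3, at 27 in Aldoc, at −27 and −14 in Slc16a3, and at −135, −134 and −70 in Hif1a, where the first pair is the palindrome CACGTG read on both strands.

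Values below are log2 of the background-subtracted signal over the 75th percentile of its array, so 0 is a signal at that percentile, and they are compared between arrays for the same probe only. A gene is called where limma's two-sided moderated test, over all 16 arrays with 1 coefficient per group, gave an unadjusted p below 0.05 and the fold change was over 2. These limits are the ones the methods name. Adjusted p-values are by Benjamini-Hochberg over all probes tested in the comparison. A difference is followed by ± its SE, with n = 2 arrays in each group. Two-sided exact permutation of 2 against 2 arrays cannot give a p below 0.333, so the tests lean on the spread shared over the 8 groups. Of the 35 genes, 16 were called in at least 1 of 8 comparisons and 19 in none, and 12 passed 0.05 after adjustment in at least 1. RNA of a whole wound cannot tell fewer cells of a type from less RNA per cell.

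On the arrays labelled day 7, 10 of the 35 genes were lower with estrogen than with vehicle and none was higher, where 8.99% of the 30150 probes tested were called (4.32% lower). The 10 were Hk2, Pfkl, Aldoc, Pgam1, Eno1, Slc16a3, Hif1a, Egln3, Car9 and Ndrg1. After adjustment 7 passed, all lower: Hk2, Pgk1, Eno1, Pkm, Slc16a3, Egln3 and Ndrg1, where 1.41% of all probes passed as lower. The difference was below 0 for 26 of 35 genes, with a median of −0.55 against 0.01 over all probes. On the slides, 25 of 35 were lower on both, 3 higher on both and 7 opposite. This count was not made over all probes, so it cannot be called particular to these genes. The arrays of both groups did not overlap for 25 of 35 genes, and for 58.8% of all probes. Without replicate 1 of the db/db + vehicle group the 10 calls became 5, and without that array or either db/db + estrogen array no member passed after adjustment. With slide as a block the 10 calls stayed 10, all of them shared, and 4 passed after adjustment.

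**Figure D1:**
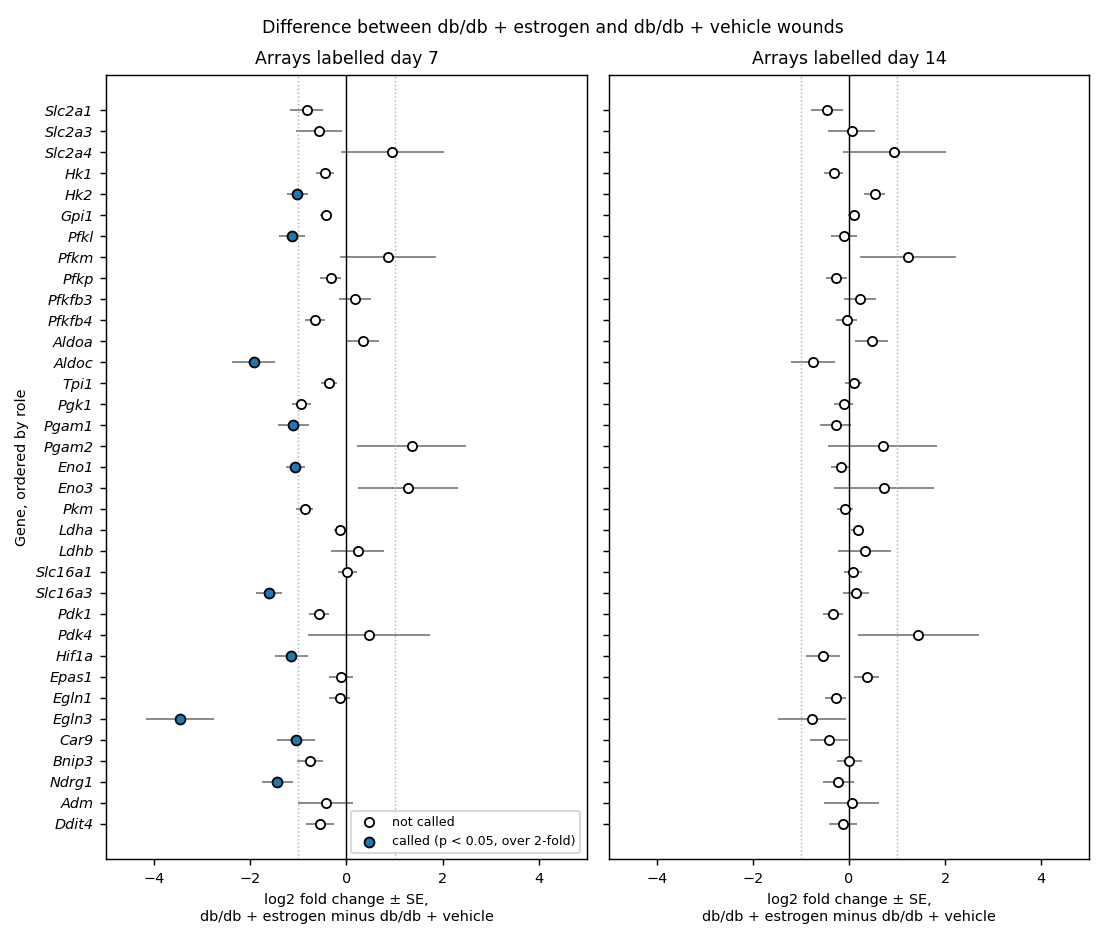
Log2 fold change in db/db wounds with estrogen against vehicle (horizontal axis) for each of the 35 genes (vertical axis, ordered by role), with arrays labelled day 7 on the left and day 14 on the right. Points are differences of means of 2 arrays, bars are ± SE, filled points are called and dotted lines mark 2-fold; 10 points are filled on the left, all below 0, and none on the right.

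The largest difference of the set was in Egln3, the HIF prolyl hydroxylase that is induced by HIF. Its levels on the 2 arrays labelled day 7 were 2.10 and 2.85 in the WT group, 1.18 and 1.88 in the db/db group, −0.08 and −0.41 in the db/db + estrogen group, and 3.60 and 2.85 in the db/db + vehicle group. Both db/db + estrogen arrays lay below all others of that label and both db/db + vehicle arrays at or above them, with the lower db/db + vehicle array about level with the higher WT array. The db/db + estrogen group was 11.1-fold lower than the db/db + vehicle group, a log2 difference of −3.47 ± 0.71 (limma adjusted p = 0.033). Against untreated db/db wounds the difference was −1.77 ± 0.71 with estrogen (adjusted p = 0.19) and 1.70 ± 0.71 with vehicle (adjusted p = 0.34), both called without adjustment alone. The estrogen call was lost without either db/db + estrogen array (−1.94 without replicate 1, −1.61 without replicate 2) or without db/db replicate 2 (−1.43). The vehicle call was lost without db/db + vehicle replicate 1 (1.32) or db/db replicate 1 (1.35). On the arrays labelled day 14 the levels were 2.02 and 0.03 in the WT group, 1.57 and 2.0 in the db/db group, 3.40 and 1.49 in the db/db + estrogen group, and 3.40 and 3.03 in the db/db + vehicle group. There the replicates of WT and of db/db + estrogen lay far apart, and no comparison was called.

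Other genes of oxygen sensing did not share one pattern. Hif1a, the HIF-1α subunit, measured 1.12 and 1.02 in the WT group, 1.95 and 1.21 in the db/db group, 0.47 and 0.56 in the db/db + estrogen group, and 1.96 and 1.37 in the db/db + vehicle group on the arrays labelled day 7, and both db/db + estrogen arrays were the lowest. It was lower with estrogen than with vehicle by −1.15 ± 0.35 (limma adjusted p = 0.1) and than in untreated db/db wounds by −1.06 ± 0.35 (adjusted p = 0.11). These calls did not pass adjustment, and the first was lost without db/db + vehicle replicate 1 (−0.85), the second without db/db replicate 1 (−0.69), without db/db + estrogen replicate 1 (−1.01) or with normexp background correction (−0.93). With label day 14 Hif1a was at 1.64 and 0.92 in the WT group, 1.82 and 2.06 in the db/db group, 1.94 and 1.1 in the db/db + estrogen group, and 2.08 and 2.05 in the db/db + vehicle group, with no call. Epas1, the HIF-2α subunit, is rich in endothelium and was highest in untreated db/db wounds: its levels labelled day 7 were 4.24 and 3.92 in the WT group, 5.35 and 5.03 in the db/db group, 3.70 and 4.07 in the db/db + estrogen group, and 3.75 and 4.24 in the db/db + vehicle group. Labelled day 14 they were 4.40 and 4.01 in the WT group, 4.80 and 5.07 in the db/db group, 4.46 and 4.05 in the db/db + estrogen group, and 4.02 and 3.75 in the db/db + vehicle group. All 4 untreated db/db arrays lay above the 12 others, as they did for Slc2a3, which was seen after the values were known and held for 0.826% of the 25909 probes well above background on all arrays. Egln1, the main HIF prolyl hydroxylase in normal oxygen, lay between −3.48 and −2.38 on all arrays and was called nowhere.

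Among the hypoxia and stress targets, Ndrg1, a stress-responsive gene of epithelia, was 3.10 and 3.65 in the WT group, 3.24 and 3.28 in db/db, 2.59 and 2.68 in db/db + estrogen and 4.45 and 3.70 in db/db + vehicle wounds labelled day 7. The db/db + estrogen arrays were the lowest and the db/db + vehicle arrays the highest, a difference of −1.44 ± 0.33 (limma adjusted p = 0.047). With label day 14 Ndrg1 measured 3.46 and 3.09 in the WT group, 3.52 and 3.55 in the db/db group, 4.43 and 3.51 in the db/db + estrogen group, and 4.20 and 4.19 in the db/db + vehicle group, and no comparison was called. Car9, which makes bicarbonate at the cell surface, was −1.95 and −2.01 in the WT group, −1.38 and −0.81 in the db/db group, −1.39 and −1.49 in the db/db + estrogen group, and 0.10 and −0.88 in the db/db + vehicle group on the arrays labelled day 7 and −1.05 and −1.72 in the WT group, −0.80 and −0.86 in the db/db group, 0.10 and −0.96 in the db/db + estrogen group, and −0.09 and 0.06 in the db/db + vehicle group on those labelled day 14. Its call between estrogen and vehicle (−1.06 ± 0.40, adjusted p = 0.17) rested on db/db + vehicle replicate 1, without which it was −0.57. It was also lost without db/db + estrogen replicate 1 (−1.11) or 2 (−1.01) and with normexp background correction (−0.96). Bnip3, a mitochondrial protein of mitophagy, was called in none of the 8 comparisons, with levels from 3.31 to 4.60.

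Slc16a3 (MCT4), which exports lactate from glycolytic cells, was lower with estrogen in both comparisons labelled day 7, and neither call was lost under any alternative tried, single arrays left out included. Its levels labelled day 7 were 2.47 and 2.88 in the WT group, 3.86 and 3.76 in the db/db group, 2.16 and 2.05 in the db/db + estrogen group, and 3.99 and 3.44 in the db/db + vehicle group. Both db/db + estrogen arrays lay below every other array of the study, while db/db and db/db + vehicle arrays overlapped. The gene was 3.06-fold lower with estrogen than with vehicle (−1.61 ± 0.27, limma adjusted p = 0.016) and 3.25-fold lower than in untreated db/db wounds (−1.70 ± 0.27, adjusted p = 0.0069). It was not called with vehicle against db/db (−0.09 ± 0.27). Labelled day 14 it was at 3.58 and 3.82 in the WT group, 4.0 and 4.34 in the db/db group, 4.44 and 3.78 in the db/db + estrogen group, and 3.78 and 4.15 in the db/db + vehicle group, and no comparison was called. Its relative Slc16a1 (MCT1), which carries lactate in both directions, was dim and varied little, from −4.02 to −3.35 over the 16 arrays.

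Several enzymes of the glycolytic chain were lower with estrogen too, and Pfkm, Pgam2 and Eno3 were not among them. Hk2, the inducible hexokinase, was 1.21 and 1.97 in the WT group, 0.94 and 0.96 in the db/db group, 0.49 and 0.64 in the db/db + estrogen group, and 1.61 and 1.55 in the db/db + vehicle group on the arrays labelled day 7. It was lower with estrogen than with vehicle by −1.02 ± 0.22 (limma adjusted p = 0.04), close to the 2-fold limit, and fell short of it without db/db + estrogen replicate 1 (−0.94), without db/db + vehicle replicate 1 (−0.99) or with normexp background correction (−0.98). Pfkl, the liver-type phosphofructokinase, was 0.04 and 0.15 in the WT group, 0.59 and 0.94 in the db/db group, −0.23 and −0.30 in the db/db + estrogen group, and 0.95 and 0.79 in the db/db + vehicle group. Its difference was −1.14 ± 0.27 from vehicle (adjusted p = 0.052) and −1.03 ± 0.27 from untreated db/db wounds (adjusted p = 0.053). The latter call was lost without db/db + estrogen replicate 2 (−0.99) or db/db replicate 2 (−0.86). Aldoc, an aldolase isoform of brain that is also induced by hypoxia, was 1.41 and 1.73 in the WT group, 0.95 and 1.70 in the db/db group, 0.81 and 0.18 in the db/db + estrogen group, and 2.37 and 2.49 in the db/db + vehicle group, so that the 2 treated groups were far apart. It was 3.82-fold lower with estrogen than with vehicle (−1.93 ± 0.45, adjusted p = 0.052). Its higher value with vehicle than in db/db wounds (1.11 ± 0.45, adjusted p = 0.33) was not called without db/db + vehicle replicate 1 (1.17) or 2 (1.05) or without db/db replicate 1 (0.74).

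Pgam1, the phosphoglycerate mutase of most tissues, measured 4.16 and 4.44 in the WT group, 4.93 and 5.01 in the db/db group, 4.09 and 3.90 in the db/db + estrogen group, and 5.27 and 4.93 in the db/db + vehicle group on the arrays labelled day 7. Eno1, the widespread enolase, measured 5.06 and 5.27 in the WT group, 5.34 and 5.56 in the db/db group, 4.86 and 4.86 in the db/db + estrogen group, and 6.03 and 5.81 in the db/db + vehicle group. Both were lowest with estrogen and, against vehicle, differed by −1.1 ± 0.32 for Pgam1 (limma adjusted p = 0.089) and by −1.06 ± 0.20 for Eno1 (adjusted p = 0.023). Each fell under the 2-fold limit without db/db + vehicle replicate 1 (−0.93 for Pgam1 and −0.95 for Eno1) and with quantile normalization (−0.82 and −0.74). Eno1 has a near-identical retrocopy, and its probe may also read that. Pgk1, which makes the first ATP of the pathway, and Pkm, which makes the last, passed after adjustment but changed less than 2-fold: −0.94 ± 0.20 (adjusted p = 0.038) and −0.87 ± 0.17 (adjusted p = 0.029). Aldoa (0.33 ± 0.34), Ldha (−0.13 ± 0.14) and Tpi1 (−0.37 ± 0.17) did not pass either test. With 2 arrays per group, this does not show that they were unchanged. Aldoa was 8.15 and 8.16 with estrogen and 8.16 and 7.47 with vehicle. The summed log2 level of 15 fast muscle markers was 10.05 and 10.0 with estrogen and 9.77 and 8.21 with vehicle. The part of muscle in Aldoa was not tested. Labelled day 14, values for Hk2 were 1.60 and 1.90 in the WT group, 1.56 and 1.58 in the db/db group, 2.03 and 1.90 in the db/db + estrogen group, and 1.38 and 1.48 in the db/db + vehicle group. Those for Pfkl were 0.57 and 0.27 in the WT group, 0.71 and 0.92 in the db/db group, 1.24 and 0.30 in the db/db + estrogen group, and 0.87 and 0.88 in the db/db + vehicle group. Aldoc was at 1.85 and 0.60 in the WT group, 1.39 and 1.60 in the db/db group, 2.25 and 1.18 in the db/db + estrogen group, and 2.58 and 2.35 in the db/db + vehicle group. The replicates of Hk2 were close, while the db/db + estrogen replicates of Pfkl and Aldoc and the WT replicates of Aldoc lay apart. Pgam1 was at 4.81 and 3.93 in the WT group, 5.02 and 5.30 in the db/db group, 5.47 and 4.67 in the db/db + estrogen group, and 5.46 and 5.24 in the db/db + vehicle group. Eno1 was at 5.47 and 5.25 in the WT group, 5.51 and 5.75 in the db/db group, 5.93 and 5.39 in the db/db + estrogen group, and 5.83 and 5.83 in the db/db + vehicle group. No comparison labelled day 14 was called for these 5 genes.

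**Figure D2:**
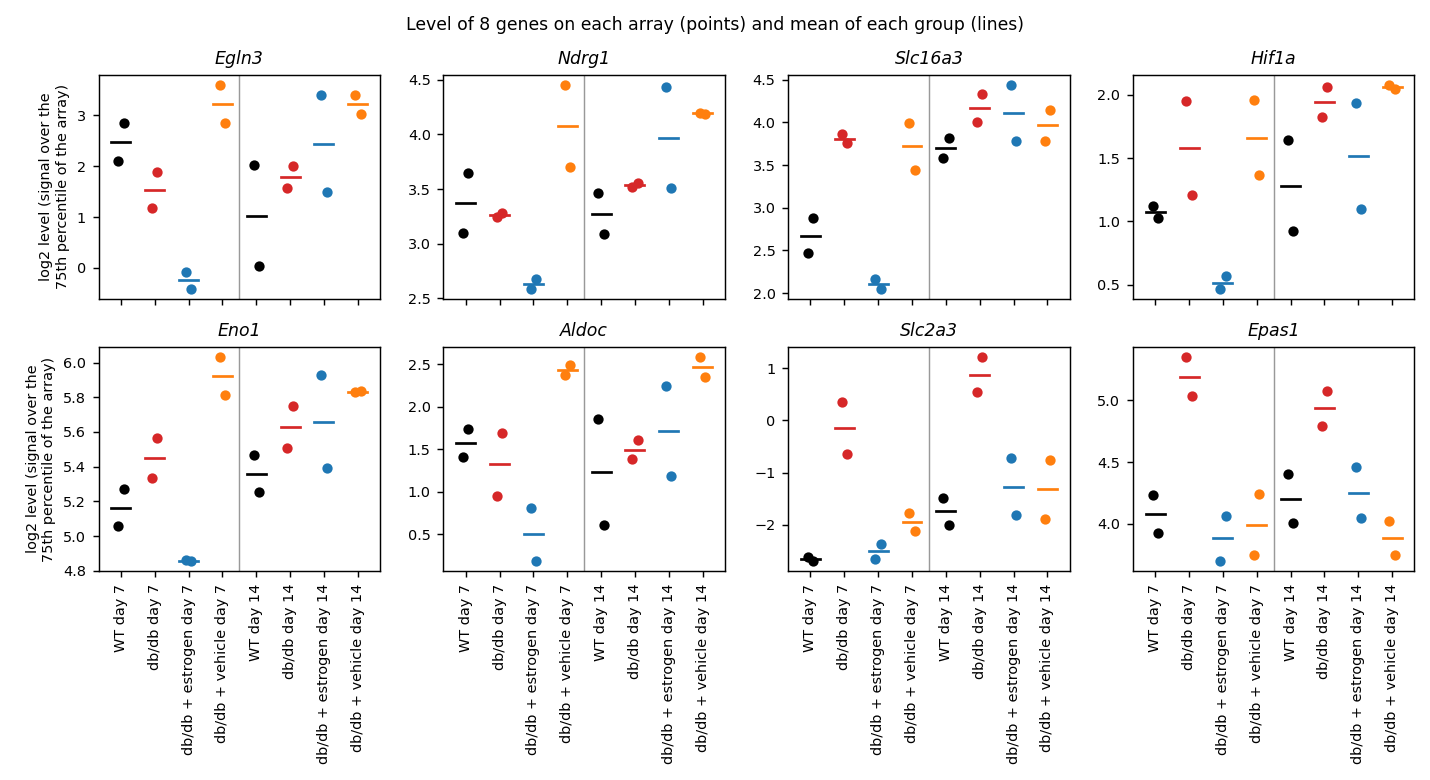
Log2 level (signal over the 75th percentile of the array, vertical axes, each with its own range) of Egln3, Ndrg1, Slc16a3, Hif1a, Eno1, Aldoc, Slc2a3 and Epas1 in the 8 groups (horizontal axis), arrays labelled day 7 left of the grey line and day 14 right of it. Points are single arrays and short lines the means of 2 arrays; Slc16a3 lies at 2.16 and 2.05 with estrogen and label day 7, and Slc2a3 and Epas1 are highest in the 4 untreated db/db arrays.

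Of the 10 genes called lower with estrogen than with vehicle, 9 had a promoter window and 7 of these held ACGTG; of the 25 others 22 had one and 12 held it. Both arrays of the db/db + estrogen group labelled day 7 lay below the 14 other arrays for 7 of the 35 genes (Hk2, Pfkl, Eno1, Slc16a3, Hif1a, Egln3 and Ndrg1), and for 3.35% of the 25909 probes well above background on all arrays, and above them for 0 of 35 genes and 4.1% of probes. This count was made after the values were seen.

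Neutrophil markers were also lower with estrogen on the arrays labelled day 7. Of a list of 11 (S100a8, S100a9 and others), 6 were lower with estrogen than with vehicle and 10 lower than in untreated db/db wounds on the arrays labelled day 7, with none higher. S100a8, a subunit of calprotectin, differed by −5.66 and −5.49 in these comparisons, where the list had medians of −2.65 and −5.49. Against vehicle it was the lowest of the list. Which cells of the wound its RNA came from was not tested. The summed log2 level of the list was 5.67 and 6.04 in the db/db + estrogen group, 8.82 and 9.02 in db/db, 8.93 and 8.85 in db/db + vehicle, and 8.62 and 8.46 in WT wounds of that label, and from 8.10 to 8.95 on the arrays labelled day 14. None of these markers was undetected on all arrays. With vehicle against db/db labelled day 7, the neutrophil markers had a median of −3.01, with summed levels of 8.93 and 8.85 against 8.82 and 9.02. The median of the 35 genes was 0.26 there. The part of neutrophils in the lower glycolytic and hypoxia genes was not tested. Keratinocyte markers were lower with estrogen than with vehicle for 2 of 7, with a summed level of 8.79 and 8.45 against 9.38 and 9.38. The part of that was not tested either. Fast muscle markers were called for 0 of 15 (14 above 0, median 1.06) and slow muscle markers for 0 of 7 (6 below 0, median −0.96). Summed fast muscle levels were 10.05 and 10.0 with estrogen against 9.77 and 8.21 with vehicle. The part of muscle in this comparison was not tested. Macrophage markers were called for 1 of 6 (lower), but 5 of 6 were above 0, with a median of 0.46. Their summed level was 6.84 and 7.09 with estrogen against 6.68 and 6.57 with vehicle. Endothelial and fibroblast markers were called for 0 of 5 and 0 of 6, and adipocyte markers for 1 of 10 (higher).

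Compared with untreated db/db wounds on the arrays labelled day 7, 6 members were lower and none higher with estrogen (Slc2a3, Pfkl, Slc16a3, Hif1a, Epas1 and Egln3), where 9.92% of all probes were called and 4.71% were lower. The median difference was −0.32 against 0.04 over all probes, and 3 genes passed after adjustment (Slc2a3, Slc16a3 and Epas1), where 5.84% of probes did. With vehicle, 2 members were higher (Aldoc and Egln3) and 2 lower (Slc2a3 and Epas1), where 4.82% of probes were called. The median was 0.26 against 0.05, and 0 members passed after adjustment, as did 0.154% of probes. These comparisons share the 2 untreated db/db arrays. Slc2a3 and Epas1 were lower in both treated groups, whereas Slc16a3 was lower in 1 of them, and the difference between the treated groups was itself called for Slc16a3 but not for Slc2a3 (−0.56 ± 0.48) or Epas1 (−0.11 ± 0.25). Of these Epas1 differences, −1.31 and −1.20, both fell short of 2-fold with the mean of its 3 probes (−0.96 and −0.77), 1 of which changed little, and the vehicle call was also lost without db/db + vehicle replicate 1 (−0.95).

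The glucose transporter Slc2a3 (GLUT3), which has a high affinity for glucose and is found in neurons and leukocytes, was the member called in the most comparisons, 6 of 8. Labelled day 7, its levels were −2.61 and −2.69 in the WT group, 0.34 and −0.65 in the db/db group, −2.65 and −2.37 in the db/db + estrogen group, and −1.78 and −2.11 in the db/db + vehicle group. The untreated db/db wounds stood apart from the 3 other groups, all of which lay at or below −1.78. Labelled day 14, the levels were −1.49 and −2.0 in the WT group, 0.54 and 1.21 in the db/db group, −0.73 and −1.81 in the db/db + estrogen group, and −1.88 and −0.76 in the db/db + vehicle group, and the db/db arrays were again the highest. The gene was 5.65-fold higher in db/db than in WT wounds labelled day 7 (2.50 ± 0.48, limma adjusted p = 0.011) and 6.15-fold higher with label day 14 (2.62 ± 0.48, adjusted p = 0.0065). With estrogen it was lower than in db/db wounds by −2.35 ± 0.48 (adjusted p = 0.021) and by −2.15 ± 0.48 (adjusted p = 0.18) for labels day 7 and day 14. With vehicle the differences were −1.79 ± 0.48 (adjusted p = 0.17) and −2.20 ± 0.48 (adjusted p = 0.095). None of these 6 calls was lost under any alternative, single arrays left out included. Neutrophil markers were also lower with vehicle than in db/db wounds labelled day 7, for 5 of 11 (2 after adjustment) with a median of −3.01, while their summed level was 8.93 and 8.85 with vehicle against 8.82 and 9.02. Their part in the Slc2a3 differences was not tested. Slc2a1 (GLUT1), the transporter of most cells, was called nowhere and ranged from 3.20 to 4.91.

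Between db/db and WT wounds labelled day 7, 4 members were higher and none lower, where 14.1% of the 29746 probes tested were called (5.67% higher), with a median of 0.14 against −0.05 over all probes. After adjustment 5 passed, 4 higher and 1 lower, where 13.2% of probes did. Beside Slc2a3 these were Pfkfb3, whose product makes the activator of phosphofructokinase, and Slc16a3 and Epas1. Pfkfb3 measured 1.54 and 1.22 in the WT group, 2.59 and 2.90 in the db/db group, 2.0 and 2.84 in the db/db + estrogen group, and 2.37 and 2.13 in the db/db + vehicle group labelled day 7 and 1.85 and 2.09 in the WT group, 2.38 and 2.45 in the db/db group, 2.48 and 2.17 in the db/db + estrogen group, and 1.64 and 2.56 in the db/db + vehicle group labelled day 14. The first set had both WT arrays lowest, a difference of 1.36 ± 0.33 (limma adjusted p = 0.027). Slc16a3 was higher by 1.14 ± 0.27 (adjusted p = 0.024) and Epas1 by 1.11 ± 0.25 (adjusted p = 0.021). The Slc16a3 call was lost without WT replicate 1 (0.93), and the Epas1 call without db/db replicate 1 (0.95), without WT replicate 2 (0.96), with quantile normalization (0.99) or with the mean of the 3 Epas1 probes (0.68), 1 of which changed little. Pfkp, the platelet-type phosphofructokinase, passed after adjustment at less than 2-fold, in the other direction (−0.78 ± 0.22, adjusted p = 0.048). Neutrophil markers were higher for 8 of 11 and macrophage markers for 5 of 6 in this comparison, with summed macrophage levels of 7.07 and 7.07 in db/db against 6.06 and 5.36 in WT wounds. Endothelial markers were called for 0 of 5, with 5 of 5 below 0 and a median of −0.38. The part of these cells was not tested.

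On the arrays labelled day 14, 3 members were higher in db/db than in WT wounds and none lower, where 18% of 30278 probes were called and 2.35% were higher. The difference was above 0 for 31 of 35 genes, with a median of 0.44 against −0.12 over all probes, and 2 genes passed after adjustment (Slc2a3 and Ddit4), where 19.6% of probes did. Adm, the vessel-relaxing peptide adrenomedullin, was 0.10 and −1.57 in the WT group, 0.53 and 1.1 in the db/db group, 1.23 and 1.05 in the db/db + estrogen group, and 0.97 and 1.21 in the db/db + vehicle group, and 0.87 and −0.50 in the WT group, 0.39 and 0.28 in the db/db group, −0.65 and 0.36 in the db/db + estrogen group, and 0.46 and 0.11 in the db/db + vehicle group on the arrays labelled day 7. WT replicate 2 lay far below its partner, and the call (1.55 ± 0.57, limma adjusted p = 0.083) was lost without it (0.72), without db/db replicate 2 (1.27), and with slide as a block (1.58) or a fit of 4 arrays (1.55). Ddit4 (REDD1), an inhibitor of mTOR, was 4.58 and 4.23 in the WT group, 5.08 and 5.84 in the db/db group, 5.09 and 4.82 in the db/db + estrogen group, and 5.10 and 5.07 in the db/db + vehicle group, and 4.49 and 4.17 in the WT group, 4.77 and 4.44 in the db/db group, 3.90 and 4.63 in the db/db + estrogen group, and 4.80 and 4.83 in the db/db + vehicle group labelled day 7. Its call (1.05 ± 0.30, adjusted p = 0.034) was lost without db/db replicate 2 (0.67), without WT replicate 2 (0.88) or with slide as a block (0.90). Both db/db arrays lay on 1 slide and both WT arrays on the other, so these 4 arrays alone cannot tell slide from group. With slide as a block 6 members were called, but only 1 of them was shared with the main fit and 0 passed after adjustment. Macrophage markers were higher for 3 of 6 and slow muscle markers for 4 of 7. Neutrophil markers were higher for 5 and lower for 1 of 11 (median 1.69), and keratinocyte markers lower for 2 of 7 (median −0.85). The summed neutrophil level was nevertheless lower in db/db wounds, at 8.10 and 8.31 against 8.48 and 8.95 in WT wounds. The part of these cells in the members' differences was not tested. With quantile normalization the median over all probes went from −0.12 to 0.07 here, and the share of higher calls among all calls from 13.1% to 32.2%.

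**Figure D3:**
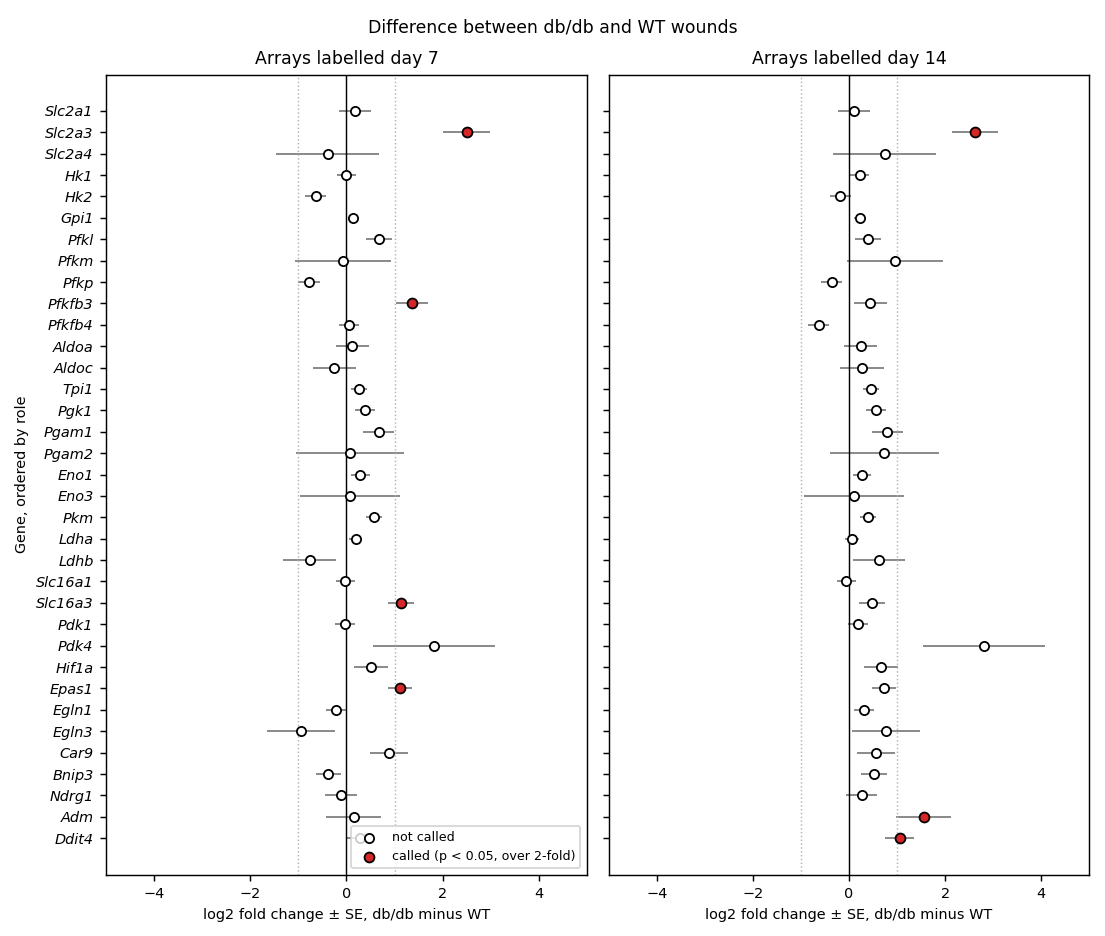
Log2 difference of db/db from WT wounds (horizontal axis) for each of the 35 genes (vertical axis, ordered by role), with arrays labelled day 7 on the left and day 14 on the right. Points are differences of means of 2 arrays, bars are ± SE and filled points are called; Slc2a3 lies farthest right among the filled points at 2.50 and 2.62, and 31 of 35 points lie above 0 on the right.

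Few members were called with treatment on the arrays labelled day 14. Estrogen against untreated db/db wounds gave 1 call, Slc2a3, where 3.91% of probes were called, with a median of 0.01 against 0.05. Vehicle against db/db gave 3 calls, all lower (Slc2a3, Pfkm and Epas1), where 7.51% of probes were called, with a median of 0.09 against 0.06. Epas1 was lower by −1.05 ± 0.25 (limma adjusted p = 0.12), which was not called without db/db + vehicle replicate 2 (−0.91) or db/db replicate 2 (−0.91), with slide as a block (−0.88) and with the mean of its 3 probes (−0.80). Estrogen against vehicle gave 0 calls, where 0.984% of probes were called and 5.38% had an unadjusted p below 0.05 whatever the fold. Among the members Hk2 alone had such a p, with a difference of 0.53 ± 0.22 (limma adjusted p = 0.87). No probe passed after adjustment there. Neutrophil markers were lower than in db/db wounds of that label for 3 of 11 with estrogen and for 4 of 11 with vehicle, and slow muscle markers for 3 of 7 and fast muscle markers for 1 of 15 with vehicle. Endothelial markers were lower for 1 of 5 with vehicle (5 of 5 below 0, median −0.86) and called for 0 of 5 with estrogen (4 of 5 below 0, median −0.57), with summed levels of 3.26 and 3.33 with vehicle, 3.71 and 3.74 with estrogen and 3.97 and 3.79 in db/db wounds. Keratinocyte markers were higher for 2 of 7 with vehicle and 1 of 7 with estrogen. The part of these cells in the Epas1 and other differences was not tested. With estrogen against vehicle, 21 of 35 genes were opposite on the 2 slides, a count not made over all probes. The db/db + estrogen replicates of this label were the most unlike: 18 of 35 genes had their highest SD in that group. Without its replicate 1 the comparison with vehicle gave 8 calls, 6 higher and 2 lower, and without its replicate 2 the comparison with db/db gave 6 calls, all lower. A test of whether the difference of estrogen-treated from untreated db/db wounds changed between the labels called 3 members (Slc16a3, Egln3 and Ndrg1), where 6.27% of probes were called, and 0 of them passed after limma's adjustment, as did 0.0953% of probes.

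The muscle isoforms showed the spread between those replicates most. Pfkm, muscle phosphofructokinase, was 3.03 and 4.13 in the WT group, 3.95 and 3.07 in the db/db group, 4.04 and 4.17 in the db/db + estrogen group, and 4.16 and 2.34 in the db/db + vehicle group labelled day 7 and 2.96 and 4.0 in the WT group, 4.64 and 4.22 in the db/db group, 1.48 and 5.07 in the db/db + estrogen group, and 1.82 and 2.27 in the db/db + vehicle group labelled day 14. Pgam2, muscle phosphoglycerate mutase, was 2.71 and 3.61 in the WT group, 3.87 and 2.60 in the db/db group, 4.56 and 4.41 in the db/db + estrogen group, and 4.01 and 2.25 in the db/db + vehicle group labelled day 7 and 2.53 and 3.59 in the WT group, 4.29 and 3.29 in the db/db group, 0.80 and 4.94 in the db/db + estrogen group, and 1.87 and 2.47 in the db/db + vehicle group labelled day 14. Eno3, muscle enolase, was 4.18 and 5.36 in the WT group, 5.38 and 4.30 in the db/db group, 6.05 and 6.05 in the db/db + estrogen group, and 5.54 and 3.99 in the db/db + vehicle group labelled day 7 and 4.45 and 5.41 in the WT group, 5.59 and 4.47 in the db/db group, 2.74 and 6.49 in the db/db + estrogen group, and 3.68 and 4.09 in the db/db + vehicle group labelled day 14. In all 3, replicate 1 of db/db + estrogen labelled day 14 was the lowest of the 16 arrays and replicate 2 the highest. The list of 15 fast muscle markers had summed log2 levels of 7.36 and 10.41 on those arrays, 9.77 and 8.21 in db/db + vehicle wounds labelled day 7, and 8.20 and 8.61 in db/db + vehicle wounds labelled day 14, against 9.87 and 9.19 in db/db wounds of that label. All 15 were well above background on every array. Only Pfkm was called, and in 1 comparison: −2.38 ± 1.00 with vehicle against db/db labelled day 14 (limma adjusted p = 0.26), which was no longer called when any 1 of the 4 arrays was left out (−2.16 and −2.61 without db/db + vehicle replicates 1 and 2, −2.17 and −2.60 without db/db replicates 1 and 2) or with slide as a random block (−2.18). Slc2a4 (GLUT4), the insulin-regulated transporter of muscle and fat, ran from −0.66 to 3.35 on the arrays of db/db + estrogen labelled day 14, and Pdk4, which shuts off pyruvate dehydrogenase, from 0.79 to 4.65. The part of muscle in these values was not tested.

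**Figure D4:**
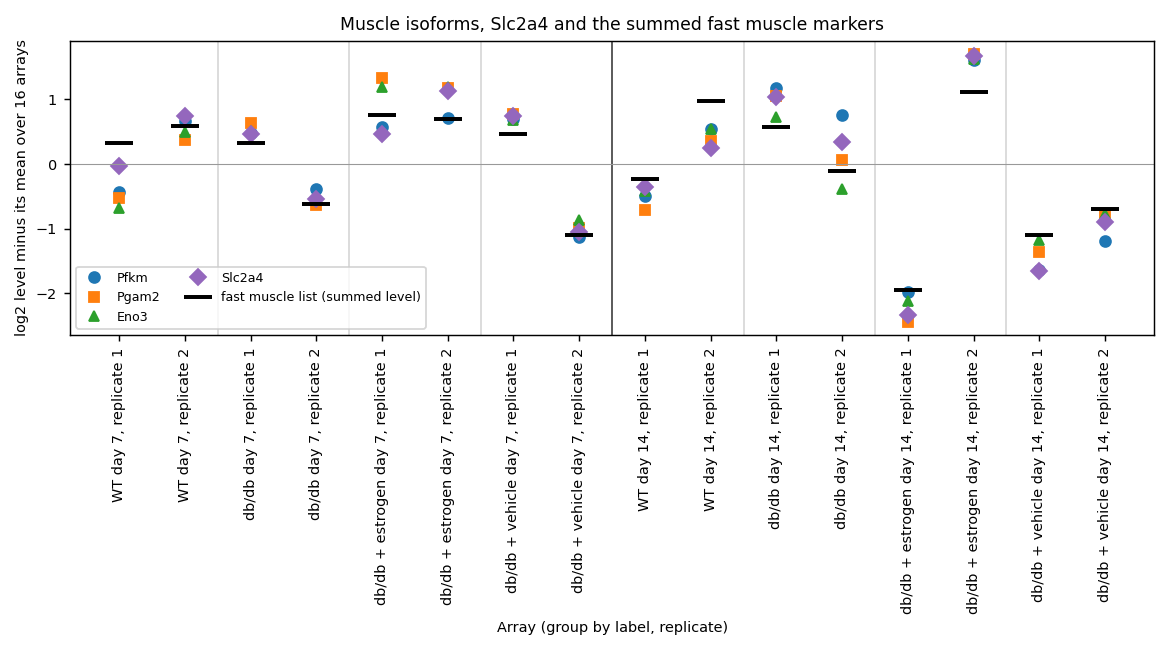
Log2 level minus its mean over 16 arrays (vertical axis) of Pfkm, Pgam2, Eno3 and Slc2a4 and of the summed signal of 15 fast muscle markers (black bars) on each array (horizontal axis). The symbols lie close together on most arrays, lowest on replicate 1 and highest or near it on replicate 2 of db/db + estrogen labelled day 14.

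Genes of the same pathways outside the set, taken from lists of general knowledge, gave the following counts. With estrogen against vehicle labelled day 7, 8 of 27 other hypoxia genes tested were lower and 1 higher, with a median of −0.49. Vegfa, the vessel growth factor, differed by −2.55 (limma adjusted p = 0.0075) and Ankrd37 by −2.23 (adjusted p = 0.013). Of 27 other glycolysis and glucose transport genes 2 were lower and none higher (Slc2a6 at −1.67, adjusted p = 0.011, and Eno2 at −1.50, adjusted p = 0.044), with a median of 0.14. For gluconeogenesis and glycogen genes 0 of 15 were called, with a median of 0.59. Against untreated db/db wounds of that label, estrogen gave 1 higher and 4 lower of 27 hypoxia genes, and vehicle 5 higher and 1 lower. Between db/db and WT wounds, 3 hypoxia genes were higher and 2 lower of 26 labelled day 7, and 6 higher and 1 lower of 27 labelled day 14. Other glycolysis genes were higher for 3 of 26 and, labelled day 14, for 2 of 27 with 1 lower. With estrogen against vehicle labelled day 14, 0 of 27 hypoxia genes were called.

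The remaining members were called nowhere. They were Slc2a1, Slc2a4, Hk1, Gpi1, Pfkp, Pfkfb4, Aldoa, Tpi1, Pgk1, Pgam2, Eno3, Pkm, Ldha, Ldhb, Slc16a1, Pdk1, Pdk4, Egln1 and Bnip3. Some had close replicates: the median SD between replicates over the 8 groups was 0.04 for Gpi1, glucose-6-phosphate isomerase, 0.10 for Tpi1 and Ldha, and 0.05 for Pdk1. For others it was large, 0.77 for Eno3, 0.73 for Pdk4 and Pgam2 and 0.54 for Slc2a4. Pdk4 was higher in db/db than in WT wounds by 1.82 labelled day 7 and 2.81 labelled day 14, and neither was called. Ldha, the subunit that favours lactate, stayed between 6.57 and 7.19 on all arrays. Pdk1, a HIF target that limits pyruvate entry to mitochondria, was 0.31 and 0.29 in db/db + vehicle wounds labelled day 7, above the 14 other arrays, with a difference of −0.58 ± 0.21 between estrogen and vehicle.

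**Figure D5:**
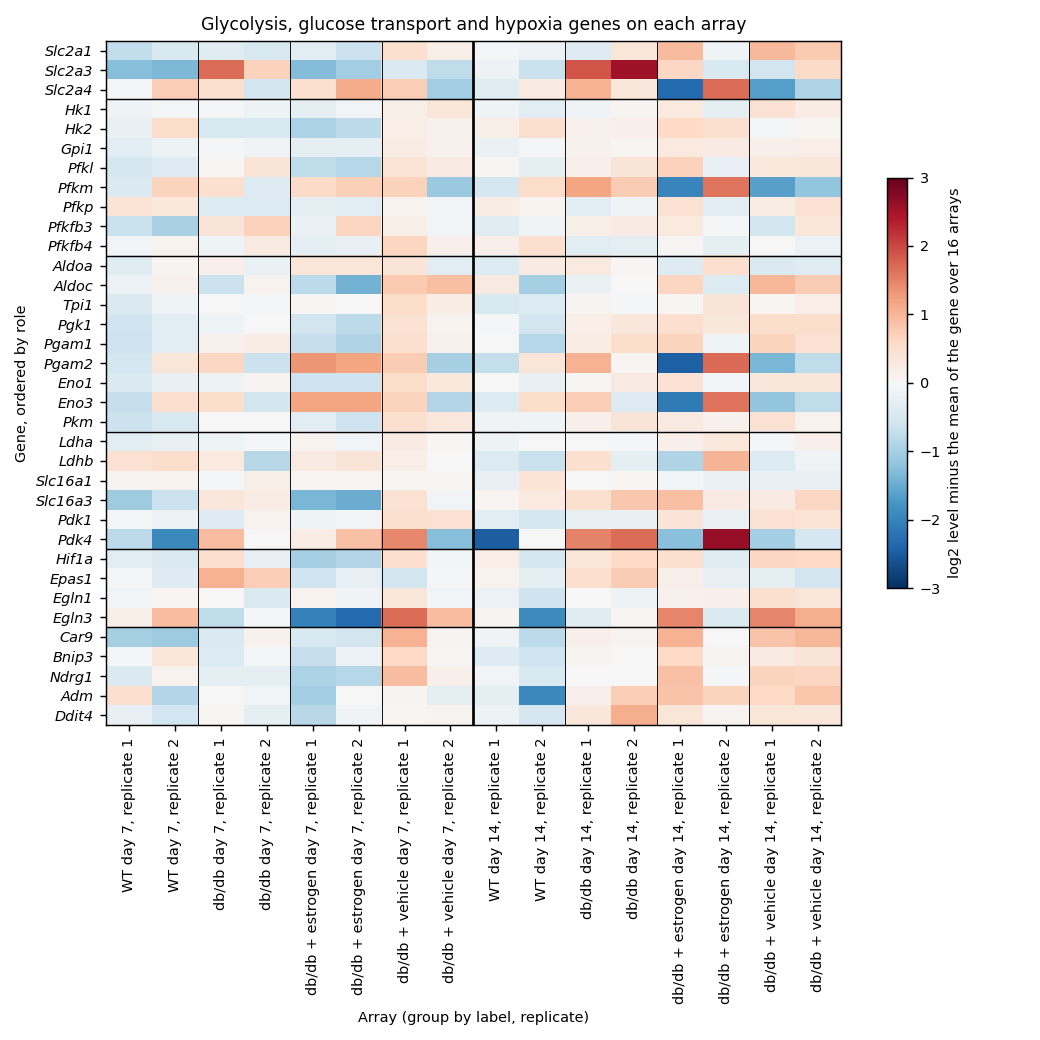
Log2 level of each of the 35 genes (rows, ordered by role) on each of the 16 arrays (columns), minus the mean of the gene over the arrays, on a colour scale from −3 (blue) to 3 (red). Egln3, Slc16a3 and Hif1a are blue on both db/db + estrogen arrays labelled day 7, Slc2a3 is red on the 4 untreated db/db arrays, and the muscle isoforms are blue on replicate 1 and red on replicate 2 of db/db + estrogen labelled day 14.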

How the data were processed

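Agilent one-colour mouse arrays of 16 wound RNA samples were used, and group, labelled day and replicate came from the sample records. Per the labels, the authors made the deposited scanner files with Agilent Feature Extraction 11.0.1.1, and each spot holds a background-subtracted intensity, not scaled between arrays, besides pixel intensities of spot and local background. The deposited series matrix holds a linear ratio, which equalled the intensity over the 75th percentile of the array within 0.2% for 99.7% to 99.9% of 34643 shared probes, with column medians from 0.139 to 0.182. It is not centred per gene, and how its probes were left out is not given in the sources used here.

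Spots marked as outliers were dropped, spots of a probe averaged, log2 taken and the 75th percentile subtracted. RefSeq accessions named 27427 of 39429 probes (69.6%). Of the 35 genes, 24 had 1 probe and 11 several, 50 in all. Over 15 pairs of a call and another probe of that gene, 12 had the same sign and 11 were also called, and the 4 not called were all of 1 of the 3 Epas1 probes. A probe was tested if at least 1 group compared had it well above background on each of its arrays, with limma 3.58.1 in R 4.3.3 (8 residual degrees of freedom), after a check on simulated data. The labels speak of biological replicates but not of animals, so p-values measure the spread between these samples. The number of arrays limits the precision.

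The genes, lists and tests were chosen with earlier results of these data known. All members are named, with values on every array for those called at least once and for the muscle isoforms, and at most 2 genes of any other list. The lists were fast and slow muscle, adipocyte, neutrophil, macrophage, keratinocyte, endothelial, fibroblast, other glycolysis and glucose transport, gluconeogenesis and glycogen, and other hypoxia genes. Cd68 and Slc2a12 had no named probe. Alternatives were normexp (offset 50) on pixel intensities, quantile normalization, the series matrix, other filters on dim probes, a fit of the 4 arrays compared, slide or replicate number as a block, the mean of all probes of a gene, and each array left out.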

Additional observations from a re-analysis of the deposited data

Results flagged for a closer look

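The difference between db/db + estrogen and db/db wounds was not the same for both labelled days in 3 members, by limma's test of the difference itself (unadjusted p below 0.05 and over 2-fold), where 6.27% of 30431 probes were called and 0.0953% passed after adjustment. For Slc16a3, the lactate exporter, it was −1.70 labelled day 7 and −0.06 labelled day 14, a change of 1.64 ± 0.38 (SE; limma adjusted p = 0.18). For Egln3 it was −1.77 and 0.66, a change of 2.43 ± 1.00 (adjusted p = 0.46). For Ndrg1 it was −0.62 and 0.43, a change of 1.06 ± 0.46 (adjusted p = 0.49). None passed after adjustment. The labelled day goes with the slide and the scan day, so these cannot be told apart.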

How the results depend on the processing

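No called member changed direction under any alternative run. The median over the members changed sign for estrogen labelled day 14, from 0.01 to as low as −0.06 against db/db (quantile normalization) and to as low as −0.20 against vehicle (without db/db + estrogen replicate 1). The median over all probes for db/db vs WT labelled day 7 was −0.05, with normexp −0.19 and with quantile normalization 0.04. With slide as a fixed block, calls labelled day 14 numbered 6 in place of 3 for db/db vs WT, with 1 shared. They numbered 3 in place of 1 for db/db + estrogen vs db/db, with 1 shared. For db/db + vehicle vs db/db they numbered 8 in place of 3, with 2 shared, and a fit of only the 4 arrays compared gave 7. Members called for a change between labelled days numbered, with slide as a fixed block, 2 for db/db vs WT, 7 for db/db + estrogen vs db/db and 2 for db/db + vehicle vs db/db. These stood in place of 0, 3 and 0, and the mean of all probes gave 1 for db/db vs WT. The cause was not tested. Alternatives for these changes between days were chosen after seeing the data. With single arrays left out, calls labelled day 7 ranged from 3 to 4 for db/db vs WT, from 4 to 6 for db/db + estrogen vs db/db, from 1 to 5 for db/db + vehicle vs db/db (1 without db/db + vehicle replicate 1, 2 without db/db replicate 1) and from 5 to 12 for db/db + estrogen vs db/db + vehicle. Labelled day 14 they ranged from 1 to 6 (1 without db/db replicate 2, 6 without WT replicate 1), from 1 to 6, from 1 to 2 and from 0 to 8. For the changes between days they ranged from 0 to 3 (3 without WT day 14 replicate 1), from 1 to 13 (13 without db/db + estrogen day 14 replicate 2) and from 0 to 0. Slc16a3 kept its call in that second set where only 1 was made.

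Labelled day 7 the replicate number goes with the slide. Correlations of same-numbered deviations had both signs, from −0.312 to 0.389 labelled day 7 and from −0.454 to 0.324 labelled day 14 over 25909 probes. They showed no single pattern of pairing and cannot exclude one. With a replicate block the calls were 4, 6, 4 and 10 labelled day 7 and 4, 1, 4 and 0 labelled day 14, and 2 members passed after adjustment in db/db + estrogen vs db/db + vehicle labelled day 7, in place of 7. Under quantile normalization the share of higher calls among all probes called went from 40.3% to 52.2% for db/db vs WT labelled day 7 and from 65.3% to 53.5% for db/db + estrogen vs db/db labelled day 14, and with normexp from 70.7% to 59.3% for db/db + vehicle vs db/db labelled day 14. All members were well above background on every array, but some were dim, such as Slc16a1 at −4.02 and −3.35 in the WT group labelled day 14. With normexp background correction the calls of Hk2 and Car9 with estrogen against vehicle labelled day 7 were lost. The call of Hif1a with estrogen against db/db labelled day 7 was lost too. Whether low signal narrowed the differences of dim members was not tested.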
